A study of Mus musculus with 9 samples.

Results

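The BCL2 family comprises the proteins that decide whether the outer mitochondrial membrane is opened during apoptosis. The 10 members described here were fixed by name and were Bcl2, Bcl2l1 and Mcl1 (anti-apoptotic), Bax and Bak1 (pore-forming effectors), and Bcl2l11, Bbc3, Pmaip1, Bid and Bad (BH3-only). They were found by symbol among the 56748 genes counted, and all 10 had enough counts to be tested in every comparison. RNA-seq was performed on hematopoietic stem cells (HSCs) sorted from the bone marrow of female C57BL/6 mice; the labels name no treatment and no engineered allele for any group. Young HSCs (yHSCs) came from mice of 6 to 10 weeks. Pre-aged HSCs (paHSCs), from mice of 14 to 16 months, were divided by surface P-selectin, the product of Selp, into Selp-low and Selp-high paHSCs. Each group had 3 libraries (n = 3). Whether 1 library came from 1 animal or from pooled animals is not given in the sources used here, so the p-values measure the spread between these libraries.

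Apoptosis through the mitochondrion depends on the balance between these proteins. Anti-apoptotic members bind and restrain the effectors BAX and BAK, whereas BH3-only proteins, which are induced or activated by stress, occupy the anti-apoptotic members or engage the effectors directly, so that cytochrome c is released and caspases are activated. MCL1 is a short-lived protein on which HSC survival depends. BCL-XL, the main product of Bcl2l1, is known for maintaining late erythroid cells and platelets, and BCL2 for lymphocyte survival. RNA counts do not measure these proteins, which are also controlled by degradation, phosphorylation and cleavage.

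Promoter sequences were taken from RefSeq (GRCm38.p6, another build than the mm39 of the counts), with 250 bases before and 50 bases after each start. They were found for 9 of the 10 members, with 15 starts in total, and not for Pmaip1. Shown are the first listed starts of Bcl2l1 and Bcl2l11, since these were the members whose Selp-high libraries lay apart from both other groups, Bcl2l1 above and Bcl2l11 below. The share of all genes with such a separation was not counted, so the choice of these members is descriptive. Capitals mark AGATAA, the GATA motif, in Bcl2l1 and GTAAACA, the forkhead motif, in Bcl2l11, in the strand of the gene.
Bcl2l1, chr2:152828440-152828739, minus strand: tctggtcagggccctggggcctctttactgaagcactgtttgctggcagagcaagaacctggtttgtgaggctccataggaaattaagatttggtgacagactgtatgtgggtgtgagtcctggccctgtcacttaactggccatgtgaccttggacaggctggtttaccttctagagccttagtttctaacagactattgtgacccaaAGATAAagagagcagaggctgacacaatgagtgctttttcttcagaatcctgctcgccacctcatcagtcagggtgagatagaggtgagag
Bcl2l11, chr2:128125788-128126087, plus strand: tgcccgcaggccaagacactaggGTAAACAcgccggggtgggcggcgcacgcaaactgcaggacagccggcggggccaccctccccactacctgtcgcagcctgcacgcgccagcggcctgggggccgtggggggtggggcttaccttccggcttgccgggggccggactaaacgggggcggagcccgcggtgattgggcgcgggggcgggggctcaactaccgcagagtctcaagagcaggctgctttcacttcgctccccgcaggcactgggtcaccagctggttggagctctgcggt
The 4 motifs searched on both strands were the forkhead motif GTAAACA, the GATA motif AGATAA, the STAT motif TTCNNNGAA and the GC box GGGCGG. The GATA motif began 41 bases before the Bcl2l1 start and occurred in 11.18% of 32851 mouse promoters of the same length. GTAAACA began 227 bases before the Bcl2l11 start and occurred in 3.65% of them. GTAAACA was otherwise found at 1 start of Bbc3, and neither AGATAA elsewhere nor TTCNNNGAA (8.3% of all promoters) was found at any start of the members. GGGCGG occurred at 10 of the 15 starts, against 35.66% of all promoters. The other starts, 2 of Bcl2l1 and 1 of Bcl2l11, held neither of the capitalised motifs. The Bcl2l1 window had a GC content of 49.33% and the Bcl2l11 window one of 71.0%, against a median of 52.67% over all promoters. These matches describe letters in a window and are not evidence of binding.

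Total counts ranged from 24866975 to 35375310 per library, so that a count of 0 would allow up to 0.0848 to 0.121 CPM, the count normalised to library size. CPM were further scaled by TMM factors, which offset differences in library composition. Selp, used for the sort, was at 652, 265 and 264 CPM in the Selp-high libraries and at 20.5 to 109 CPM in the other 6. Some libraries stood apart. In Selp-low replicate 2, immunoglobulin genes took 41.0% of all counts, and in Selp-low replicate 3 the 10 neutrophil markers summed to 212759 CPM, against 543 to 64856 CPM elsewhere. Accordingly, their TMM factors were 0.545 and 0.785, with 1.05 to 1.22 for the other libraries. Among yHSCs, replicate 1 correlated less with replicates 2 and 3 (r = 0.848 and 0.908 over genes) than these did with each other (r = 0.954). The neutrophil markers summed to 64856 CPM in yHSC replicate 1, against 12936 and 18506 CPM in yHSC replicates 2 and 3. All 10 HSC markers were detected in each library, with summed levels of 653 to 1559 CPM in yHSCs, 498 to 1167 CPM in Selp-low and 1169 to 1655 CPM in Selp-high paHSCs. Of these sums, Ly6a alone supplied 635 and 879 CPM in Selp-low replicates 1 and 2, against 69.6 to 374 CPM elsewhere. In bulk RNA, fewer cells of a type and less RNA per cell cannot be told apart.

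Mcl1 was the most abundant member in all 9 libraries. Compared per length (FPKM, here TMM-scaled CPM divided by gene length in kilobases), its mean level was 121 FPKM and exceeded that of 97.8% of the protein-coding genes tested. Bax followed with a mean of 38.5 FPKM, Bid with 24.8, Bbc3 with 14.8, Bcl2l1 with 11.4, Pmaip1 with 9.53, Bad with 5.62, Bcl2 with 5.36, Bcl2l11 with 2.03 and Bak1 with 0.577 FPKM. Bax was second in 8 of 9 libraries, and Bid took that place in the other. Bak1 was last in 8 of 9, whereas Bcl2l11 was last in Selp-high replicate 1. The members between them changed places from library to library, so neighbours in that range did not differ beyond their spread. The anti-apoptotic genes together supplied 50.4% to 68.4% of the summed FPKM of the family, and Mcl1 alone 35.8% to 64.7%. The effectors supplied 8.56% to 23.4%, almost all of it Bax, which exceeded Bak1 by 31.9 to 215 times per length.

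**Figure D1:**
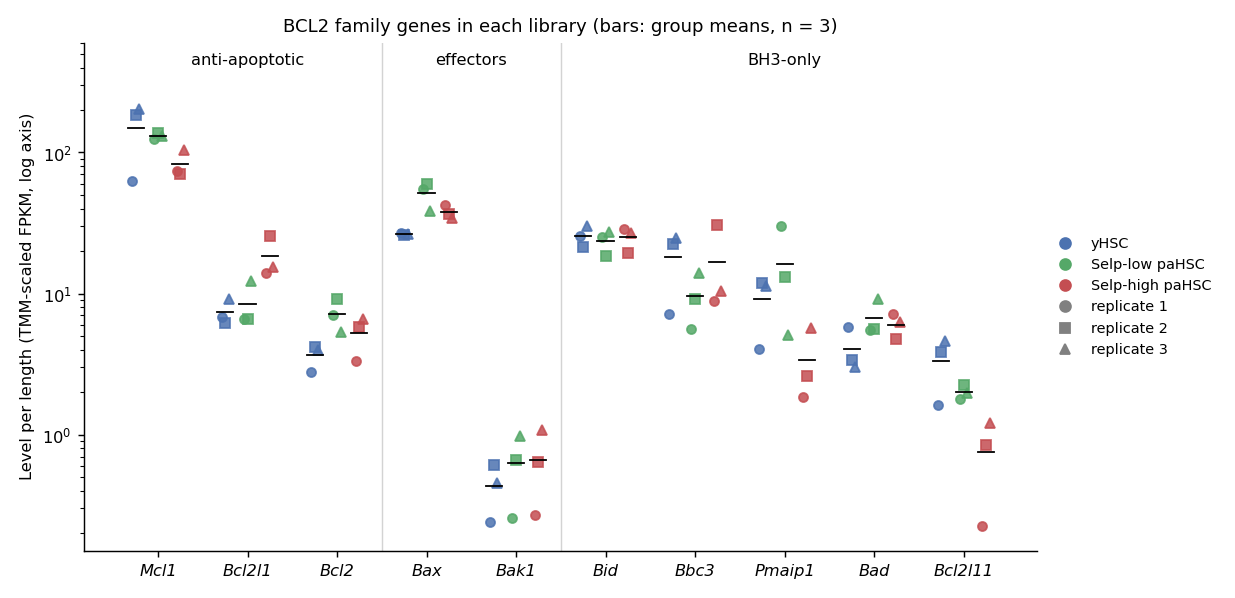
Level per length of each member (TMM-scaled FPKM, log axis) in libraries of yHSCs and of both paHSC fractions, with marker shapes for replicates and bars for group means (n = 3). Mcl1 lay highest throughout, the Selp-high libraries lay above the others for Bcl2l1 and below them for Bcl2l11, and the lowest Bcl2l11 value, in Selp-high replicate 1, was 0.225 FPKM.

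To determine whether the family differed between the groups, each pair was compared by edgeR's quasi-likelihood test with Benjamini-Hochberg adjustment over all genes tested, and a gene was called when its adjusted p did not exceed 0.05 and its log2 fold change was 1 or more in either direction. No member was called in any of the 3 comparisons (0 of 10 in each). Over all genes, 0% were called in Selp-high over Selp-low paHSCs, 0.165% in Selp-high paHSCs over yHSCs and 0% in Selp-low paHSCs over yHSCs. An unadjusted p under 0.05 was obtained for 3 of 10 members between the paHSC fractions (Bcl2l1, Mcl1 and Pmaip1; 12.5% of all genes), for 3 between Selp-high paHSCs and yHSCs (Bcl2l1, Bcl2l11 and Pmaip1; 7.59%) and for 2 between Selp-low paHSCs and yHSCs (Bcl2 and Bax; 11.3%). DESeq2, under the same thresholds, called 1 member (Pmaip1; 3.96% of all genes), 2 members (Bcl2l1 and Bcl2l11; 2.98%) and 1 member (Bcl2; 4.38%), respectively. Limma-voom with quality weights called 1 member (Bax; 2.11%) in Selp-low paHSCs over yHSCs. Members whose libraries did not overlap between the groups numbered 3, 3 and 2, against 20.9%, 13.8% and 16.3% of all genes. With 3 libraries in each group, the smallest p that an exact 2-sided permutation test can give is 0.1, so single genes cannot reach 0.05 by that test. Scaling by library totals in place of TMM factors shifted all genes together: their median log2 fold change went from -0.11 to 0.37 between the paHSC fractions (Selp-high over Selp-low) and from 0.08 to -0.47 when Selp-low paHSCs were set against yHSCs, and edgeR then also called 0 of 10 members in each comparison.

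**Figure D2:**
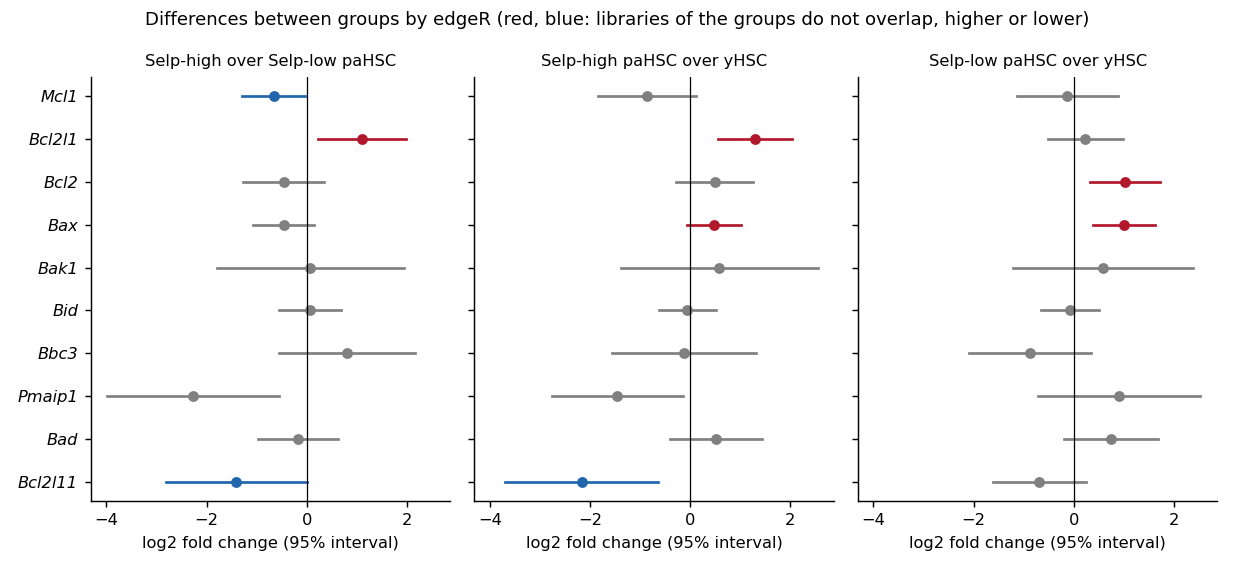
Log2 fold changes (points) with 95% intervals (lines) by edgeR for the 10 members in the 3 comparisons, coloured where the libraries of both groups did not overlap. Intervals lay above 0 for Bcl2l1 in both comparisons of Selp-high paHSCs and for Bcl2 and Bax in Selp-low paHSCs over yHSCs. They lay below 0 for Pmaip1 in both comparisons of Selp-high paHSCs, for Bcl2l11 in Selp-high paHSCs over yHSCs and for Mcl1 between the paHSC fractions. No adjusted p by edgeR was below 0.05.

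Bcl2l1 (ENSMUSG00000007659; mm39 chr2:152622588-152673648, minus strand), which encodes BCL-XL, had its highest levels in Selp-high paHSCs. It was measured at 64.3, 118 and 70.8 CPM in the 3 Selp-high libraries, at 30.2, 30.4 and 56.2 CPM in Selp-low libraries and at 31.3, 28.6 and 42.2 CPM in yHSC libraries. All 3 Selp-high libraries lay above the other 6, a separation whose share over all genes was not counted. Selp-low and yHSC libraries overlapped. Compared with Selp-low paHSCs, the Selp-high level was 2.16-fold higher (log2 fold change 1.11, SE 0.37, 95% interval 0.23 to 1.99; edgeR adjusted p = 0.338; DESeq2 adjusted p = 0.109). Without Selp-low replicate 3 the log2 fold change was 1.43 by DESeq2, with an adjusted p of 0.0112. The other DESeq2 fits that left out 1 library gave an adjusted p of 0.155 to 0.487. Over yHSCs the Selp-high level was 2.45-fold higher (log2 fold change 1.29, SE 0.32; edgeR adjusted p = 0.259; DESeq2 adjusted p = 0.0105). The DESeq2 call over yHSCs was lost without yHSC replicate 2 (adjusted p = 0.185) or yHSC replicate 3 (0.065), and without Selp-high replicate 2, the highest library, the log2 fold change of 0.94 was under the minimum. Between Selp-low paHSCs and yHSCs the log2 fold change was 0.23, with an interval from -0.51 to 0.98. Libraries of the paHSC fractions with equal replicate numbers were taken as paired, which the labels do not state. With the replicate number as a block, the adjusted p for Selp-high over Selp-low was 0.197 by edgeR and 0.0295 by DESeq2.

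Mcl1 (ENSMUSG00000038612; mm39 chr3:95566099-95570487, plus strand) had lower levels in the Selp-high fraction than in the Selp-low fraction. It was measured at 254, 242 and 357 CPM in Selp-high libraries and at 429, 466 and 446 CPM in Selp-low libraries, which did not overlap. In yHSCs it was at 215, 627 and 691 CPM, so that replicate 1 lay below every other library and replicates 2 and 3 above all. The log2 fold change of Selp-high over Selp-low paHSCs was -0.66 (SE 0.27, 95% interval -1.29 to -0.03; edgeR adjusted p = 0.386). When CPM were scaled by library totals in place of TMM factors, the libraries of both fractions overlapped, and the log2 ratio of the means was -0.18. Over yHSCs the log2 fold change was -0.86 (SE 0.42, edgeR adjusted p = 0.745). DESeq2 gave -0.85 with an adjusted p of 0.398. Without yHSC replicate 1 it was -1.18 by DESeq2, with an adjusted p of 0.00161. The other DESeq2 fits that left out 1 library gave an adjusted p of 0.314 to 0.968.

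Bcl2 (ENSMUSG00000057329; mm39 chr1:106465908-106642004, minus strand), the founding member of the family, had its highest mean in Selp-low paHSCs. It was measured at 64.5, 83.5 and 49.2 CPM in Selp-low, 30.6, 52.8 and 60.7 CPM in Selp-high and 25.4, 38.5 and 36.7 CPM in yHSC libraries. The Selp-low libraries lay above all yHSC libraries and overlapped with the Selp-high libraries. The level was 2.05-fold higher in Selp-low paHSCs than in yHSCs (log2 fold change 1.03, SE 0.29, 95% interval 0.33 to 1.73; edgeR adjusted p = 0.333; DESeq2 adjusted p = 0.0427). This DESeq2 call was lost in 5 of the 6 fits that left out 1 library, the exception being Selp-low replicate 3, without which the adjusted p was 0.00245. Under scaling by library totals the libraries overlapped, and the log2 ratio of the means was 0.40. The log2 fold change was 0.49 in Selp-high paHSCs over yHSCs and -0.46 in Selp-high over Selp-low paHSCs, with intervals that included 0, and under scaling by library totals the latter turned to 0.054.

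Bax (ENSMUSG00000003873; mm39 chr7:45111121-45116322, minus strand), whose product forms the pore in the mitochondrial membrane, had higher levels in all 6 paHSC libraries than in the 3 yHSC libraries. The yHSC values of 42.7, 40.9 and 41.9 CPM were close to each other. Selp-low libraries had 87.5, 94.5 and 60.4 CPM and Selp-high libraries 66.4, 57.3 and 54.4 CPM, with overlap between the fractions. The log2 fold change was 1.00 in Selp-low paHSCs over yHSCs (SE 0.26, 95% interval 0.39 to 1.62; edgeR adjusted p = 0.332), and 0.47 in Selp-high paHSCs over yHSCs (SE 0.23, adjusted p = 0.745). DESeq2 gave 0.97 for the former with an adjusted p of 0.0271, just under the fold-change minimum, and limma-voom with quality weights gave 1.14 with an adjusted p of 0.0447. DESeq2 called Bax without Selp-low replicate 3 (1.15, adjusted p = 7.7e-05) or without yHSC replicate 1 (1.05, adjusted p = 0.0178), and in the other 4 fits that left out 1 library the adjusted p was 0.118 to 0.443. Scaled by library totals, the Selp-low and yHSC libraries overlapped, the log2 ratio of the means being 0.41, whereas the Selp-high libraries stayed above the yHSC libraries. With upper-quartile factors, in contrast, the Selp-low libraries stayed apart from yHSCs and the Selp-high libraries overlapped with them.

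Bak1 (ENSMUSG00000057789; mm39 chr17:27238784-27247983, minus strand), the other effector, was near the lower end of what these libraries resolved. It had 17 to 91 counts per library, which gave 0.575 to 1.46 CPM in yHSCs, 0.623 to 2.36 CPM in Selp-low and 0.646 to 2.61 CPM in Selp-high paHSCs. In each group replicate 1 was lowest. The interval of the Selp-high over Selp-low log2 fold change ran from -1.80 to 1.94, and no difference was detectable at this depth. Ggnbp1 on the opposite strand covers the whole of Bak1 and had a mean of 35 counts against 45 for Bak1. Since the strand setting of the counting is not given in the sources used here, these reads may not be separable.

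Bcl2l11 (ENSMUSG00000027381; mm39 chr2:127967958-128004467, plus strand) encodes BIM, a BH3-only protein that binds all anti-apoptotic members and is known as a target of FOXO factors after cytokine withdrawal. It was lowest in Selp-high paHSCs. The Selp-high libraries had 1.81, 6.75 and 9.68 CPM, the Selp-low libraries 14.3, 18.0 and 15.7 CPM and the yHSC libraries 13.0, 30.9 and 36.8 CPM. The Selp-high values lay below all 6 others, and the share of all genes with such a separation was not counted. Over yHSCs the log2 fold change was -2.17 (SE 0.65, 95% interval -3.69 to -0.64; edgeR adjusted p = 0.393; DESeq2 adjusted p = 0.0224). The DESeq2 call was lost without yHSC replicate 2 (adjusted p = 0.186), yHSC replicate 3 (0.299) or Selp-high replicate 2 (0.0722), and without a filter on low counts edgeR gave an adjusted p of 0.0189. Over Selp-low paHSCs it was -1.40 (SE 0.59, edgeR adjusted p = 0.399). With the replicate block it was -1.68 by edgeR (adjusted p = 0.195) and -1.71 by DESeq2 (adjusted p = 0.0148). Scaling by library totals made the 2 paHSC fractions overlap and left Selp-high paHSCs below yHSCs.

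Pmaip1 (ENSMUSG00000024521; mm39 chr18:66591604-66598636, plus strand) encodes NOXA, which binds MCL1 preferentially and is induced by p53 and by integrated stress signalling. It was measured at 5.01, 7.14 and 15.6 CPM in Selp-high libraries, 82.1, 36.0 and 13.97 CPM in Selp-low libraries and 11.1, 32.5 and 30.9 CPM in yHSC libraries. The Selp-low libraries were spread over a wide range, and their replicate 3 lay within the Selp-high values. The log2 fold change of Selp-high over Selp-low paHSCs was -2.27 (SE 0.73, 95% interval -3.99 to -0.55; edgeR adjusted p = 0.338; DESeq2 adjusted p = 0.0317). Without Selp-low replicate 1, the highest library, it was -1.49 by DESeq2 with an adjusted p of 0.257. The call was also lost without Selp-low replicate 2 (0.163), Selp-high replicate 1 (0.175) or Selp-high replicate 2 (0.0985). Over yHSCs the log2 fold change was -1.45 (SE 0.56, edgeR adjusted p = 0.588, DESeq2 adjusted p = 0.174). DESeq2 called it there without yHSC replicate 1 (-1.76, adjusted p = 0.0332) or Selp-high replicate 3 (-2.02, adjusted p = 0.0113).

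Bbc3 (ENSMUSG00000002083; mm39 chr7:16042318-16052130, plus strand), which encodes the p53 target PUMA, varied more within groups than between them. It had 15.1, 47.9 and 52.3 CPM in yHSCs, 11.9, 19.4 and 29.6 CPM in Selp-low and 18.9, 65.1 and 22.3 CPM in Selp-high paHSCs. The groups overlapped in all comparisons, and the adjusted p by edgeR was 0.601, 0.999 and 0.609 for Selp-high over Selp-low, Selp-high over yHSC and Selp-low over yHSC.

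Bid (ENSMUSG00000004446; mm39 chr6:120868891-120893814, minus strand), which links death receptors to the mitochondrion after cleavage by caspase 8, showed the smallest differences with TMM factors. It was at 90.2, 75.5 and 107 CPM in yHSCs, 88.9, 66.0 and 97.2 CPM in Selp-low and 102, 69.4 and 94.9 CPM in Selp-high paHSCs, and replicate 2 was lowest in each group. The log2 fold changes were between -0.07 and 0.07, with intervals from -0.65 to 0.69 over the 3 comparisons. Scaled by library totals, the log2 fold change of Bid was 0.49 in Selp-high over Selp-low paHSCs and -0.59 in Selp-low paHSCs over yHSCs, beside the shifts of all genes given above. Bcl2l13 on the opposite strand shares 913 bases of the Bid locus and had a mean of 1603 counts against 2917 for Bid.

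Bad (ENSMUSG00000024959; mm39 chr19:6919229-6929267, plus strand), whose product is held inactive by survival kinases, was at 14.9, 8.69 and 7.68 CPM in yHSCs, 14.2, 14.4 and 23.3 CPM in Selp-low and 18.2, 12.1 and 15.98 CPM in Selp-high paHSCs. Its log2 fold change was 0.75 in Selp-low paHSCs over yHSCs (SE 0.39, edgeR adjusted p = 0.542) and 0.52 in Selp-high paHSCs over yHSCs. The former was 1.15 by DESeq2 without yHSC replicate 1, with an adjusted p of 0.0267. Only yHSC replicate 1 lay within the paHSC values. Gpr137, on the opposite strand, shares 620 bases with Bad and had a mean of 564 counts against 458 for Bad.

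Ratios between members within a library do not depend on how libraries are scaled to each other. They were formed after the values had been seen and are given as a description, without a test. Mcl1 exceeded Bcl2l1 per length by 5.31, 2.75 and 6.77 times in Selp-high libraries, by 19.0, 20.6 and 10.6 times in Selp-low libraries and by 9.24, 29.4 and 22.0 times in yHSC libraries. The Selp-high ratios lay below all others. Correspondingly, Bcl2l1 made up 15.3%, 25.2% and 12.2% of the summed FPKM of the 3 anti-apoptotic members in Selp-high libraries and 3.21% to 9.39% in the other 6. Bcl2l1 exceeded Bcl2l11 by 62.3, 30.6 and 12.8 times in Selp-high libraries, by 3.70, 2.96 and 6.26 times in Selp-low libraries and by 4.20, 1.62 and 2.01 times in yHSC libraries. The ratio of Bcl2 to Bcl2l11 ordered the groups without overlap, at 0.874 to 1.71 in yHSCs, 2.74 to 4.07 in Selp-low and 5.49 to 14.8 in Selp-high paHSCs. In contrast, the ratio of Bax to Bcl2, at 5.21 to 12.6 over all libraries, overlapped between the groups.

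**Figure D3:**
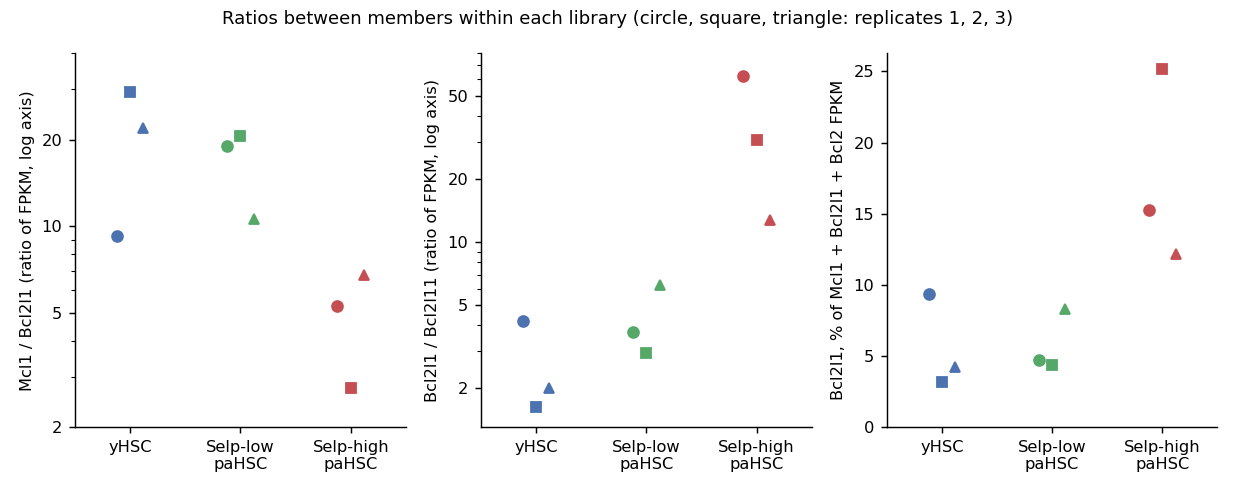
Ratio of Mcl1 to Bcl2l1 and of Bcl2l1 to Bcl2l11 per length (log axes), and share of Bcl2l1 in the summed FPKM of Mcl1, Bcl2l1 and Bcl2 (%), for each library of the 3 groups (shapes are replicates). The 3 Selp-high libraries lay apart from the other 6 in each panel, with Bcl2l1 shares of 12.2% to 25.2%.

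When the paHSC fractions were combined and compared with yHSCs in 1 fit of all 9 libraries, no member was called (0 of 10; 0% of all genes). An unadjusted p under 0.05 was obtained for Bax (log2 fold change 0.73, SE 0.21, edgeR adjusted p = 0.327), Bcl2 (0.75, SE 0.30), Bcl2l1 (0.75, SE 0.31) and Bcl2l11 (-1.45, SE 0.48), that is for 4 of 10 members against 8.97% of all genes. Of these, Bax was the 1 member with all 6 paHSC libraries above the 3 yHSC libraries, a separation in this direction shown by 2.68% of all genes. For Bcl2l1 and Bcl2l11 the difference lay mainly in the Selp-high fraction, as the values above show. A test of any difference among the 3 groups likewise called no member by edgeR (0.0133% of all genes called), with an unadjusted p under 0.05 for 5 members (Bcl2l1, Bax, Bcl2l11, Pmaip1 and Bcl2; 12.5% of all genes). DESeq2 called 4 of these, all except Bcl2, against 7.47% of all genes, and limma-voom called 1 (Bax), against 2.96%. The 3 comparisons share libraries and are not independent of each other. Both fits of all 9 libraries treated the 6 paHSC libraries as independent. If the fractions came from the same mice, which the labels do not give, the p of the combined comparison is too small.

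Markers of other cell types moved with several members, and their part in these differences was not tested. The 10 megakaryocyte and platelet markers, among them Pf4 and Itga2b, were all detected in every library, with summed levels of 3758 to 8854 CPM in Selp-high, 726 to 2653 CPM in Selp-low and 588 to 1029 CPM in yHSC libraries. Selp, on which the cells were sorted, is 1 of the 10. All 10 were higher in Selp-high paHSCs than in yHSCs, with 2 called by edgeR and 9 by DESeq2. The library with the highest sum, Selp-high replicate 2, had the highest Bcl2l1, and Selp-low replicate 3, with the highest sum outside the Selp-high group, also had the highest Bcl2l1 outside that group. The 10 B cell and plasma cell markers summed to 5490, 105928 and 94.9 CPM in the Selp-low libraries, 192 to 351 CPM in yHSCs and 378 to 3684 CPM in Selp-high paHSCs, with Pax5 at 0 counts in Selp-high replicate 3. The Selp-low libraries with most of these markers, replicates 1 and 2, also had the highest Bcl2, at 64.5 and 83.5 CPM, whereas replicate 3, with the fewest, had 49.2 CPM. The yHSC libraries had 25.4 to 38.5 CPM of Bcl2. Scaled by library totals in place of TMM factors, Bcl2 was at 4.22 FPKM in Selp-low replicate 3. The yHSC libraries then had 3.29, 5.14 and 4.33 FPKM. In Selp-high paHSCs, replicate 2, with 3684 CPM of these markers, had 52.8 CPM of Bcl2, and replicate 3, with 668 CPM, had 60.7 CPM. The 8 T cell and NK cell markers summed to 329, 942 and 632 CPM in the Selp-low libraries, 53.01 to 89.5 CPM in yHSCs and 132 to 154 CPM in Selp-high paHSCs, and 1 of them, Cd8a, was at 0 in Selp-low replicate 3 and in Selp-high replicate 3. All 3 Selp-low libraries thus lay above the other 6 in this sum, but not in each marker. In Selp-low replicate 3 Nkg7 alone had 619 CPM. Cd3g was at 0.824 CPM there, against 83.7 and 226 CPM in replicates 1 and 2. Trbc2 was at 0.112 CPM, against 87.9 and 181 CPM. For Bcl2 and Bax all 3 Selp-low libraries lay above the yHSC libraries with TMM factors, and overlapped with them when scaled by library totals. In Selp-low paHSCs over yHSCs, 7 of the 8 markers were tested, and edgeR called 0 and DESeq2 6 of them, all higher. Among Selp-low libraries, Bax and the B cell and plasma cell sum were highest in replicate 2 and lowest in replicate 3. Cd3g and Trbc2 had this order too. The T cell and NK cell sum, most of it Nkg7 in replicate 3, had another order, with replicate 1 lowest. Neutrophil markers were highest in the library with the lowest of the 3 Bax values. Genes induced by cell handling, such as Dusp1, Fos and Egr1, summed to 16749 CPM in Selp-low replicate 1, the library with the highest Pmaip1. In Selp-high replicates 2 and 3 they had the lowest sums of all libraries, 1815 and 3631 CPM, beside low Pmaip1, and in Selp-high replicate 1 they summed to 11842 CPM beside the lowest Pmaip1 value. The other Selp-low libraries had 8344 and 4580 CPM and the yHSC libraries 8080 to 11272 CPM. For all 10 handling genes the log2 fold change of Selp-high over Selp-low was below 0 (median -1.16), with 0 called by edgeR and 1 by DESeq2.

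**Figure D4:**
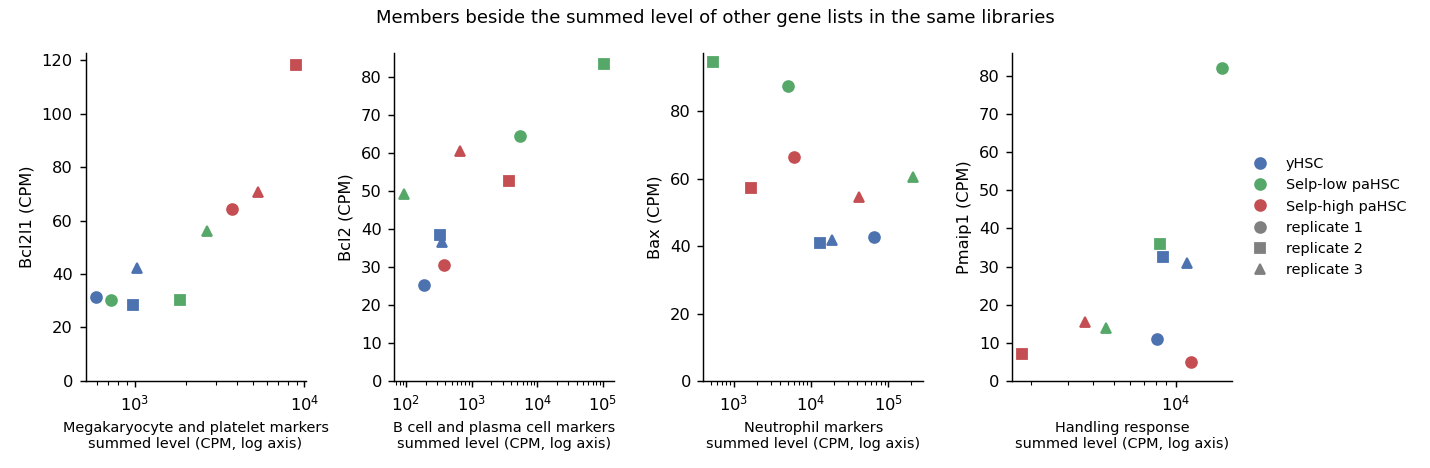
Bcl2l1, Bcl2, Bax and Pmaip1 (CPM) against the summed level (CPM, log axis) of megakaryocyte and platelet markers, B cell and plasma cell markers, neutrophil markers and handling-response genes, respectively; each point is 1 library. Bcl2l1 was highest, at 118 CPM, in the library with 8854 CPM of megakaryocyte and platelet markers, and Bcl2 was highest, at 83.5 CPM, in the library with 105928 CPM of B cell and plasma cell markers.

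The remaining genes of the pathway were examined in 5 lists, in which edgeR called no gene in any of the 3 comparisons. Of 15 further BCL2 relatives, 14 were tested between the paHSC fractions. Bcl2a1d and Bcl2a1b, encoding copies of the anti-apoptotic A1 protein, had log2 fold changes of -4.45 (SE 1.48, edgeR adjusted p = 0.338) and -2.93 (SE 1.20, adjusted p = 0.391) in Selp-high over Selp-low paHSCs, and an unadjusted p under 0.05 was found for these 2 genes (0 higher and 2 lower; 5.67% of all genes were lower at this threshold). By DESeq2, Bcl2a1d was called in this comparison (-4.49, adjusted p = 0.0109) and in Selp-low paHSCs over yHSCs (3.78, adjusted p = 0.0225). Bcl2a1d was at 12.9 and 18.5 CPM in Selp-low replicates 1 and 2, the libraries rich in B cell markers, and at 0.06 to 1.27 CPM in the other 7. The A1 genes are near-identical copies, so their reads may have been divided or lost in counting. Among 15 genes of the apoptosome, the caspases and mitochondrial release, Cycs, which encodes cytochrome c, was the 1 gene with an unadjusted p under 0.05 between the paHSC fractions. Its levels were 112, 124 and 163 CPM in Selp-high, 223, 350 and 370 CPM in Selp-low and 176, 81.8 and 101 CPM in yHSC libraries. The log2 fold change of Cycs was -1.25 in Selp-high over Selp-low paHSCs (SE 0.30, edgeR adjusted p = 0.338; DESeq2 adjusted p = 0.00929) and 1.42 in Selp-low paHSCs over yHSCs (SE 0.39, DESeq2 adjusted p = 0.0356).

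Among 11 caspase inhibitors and death receptor genes, Birc3, which encodes the inhibitor cIAP2, had a log2 fold change of -1.41 in Selp-high over Selp-low paHSCs (SE 0.39, edgeR adjusted p = 0.338; DESeq2 adjusted p = 0.0453) and of -0.79 in Selp-high paHSCs over yHSCs. Fas, a death receptor, had log2 fold changes over yHSCs of 1.12 in Selp-high paHSCs (SE 0.34, edgeR adjusted p = 0.403) and 1.75 in Selp-low paHSCs (SE 0.44, adjusted p = 0.332; DESeq2 adjusted p = 0.0153). Of 11 p53 and FOXO pathway regulators, 10 were tested. Mdm4, an inhibitor of p53, and Ddit3, a stress-induced transcription factor, had log2 fold changes of -0.73 (SE 0.29) and -0.67 (SE 0.28) between the paHSC fractions, with edgeR adjusted p of 0.385 and 0.392. Trp53 itself was at 166 to 303 CPM over all libraries, with a log2 fold change of 0.30 for Selp-high over Selp-low. Among 15 genes of cytokine survival signalling, 4 had an unadjusted p under 0.05 between the paHSC fractions, all higher in Selp-high (6.88% of all genes were higher at this threshold). They included Kit, the stem cell factor receptor, with a log2 fold change of 1.35 (SE 0.36, DESeq2 adjusted p = 0.0228). Kit is also on the HSC marker list. Of its 10 genes, 9 were higher in Selp-high over Selp-low paHSCs at an unadjusted p under 0.05 by edgeR. There edgeR called 0 of them and DESeq2 5. In Selp-low paHSCs over yHSCs, 4 HSC markers were lower and 1 higher at this threshold (11.3% of all genes in either direction). Between the paHSC fractions, the median log2 fold change was -0.24 for the BCL2 relatives, -0.13 for the apoptosome list, 0.02 for the caspase inhibitors and death receptor genes, -0.48 for the p53 and FOXO regulators and 0.22 for cytokine signalling. It was -0.31 for the 10 members and -0.11 for all genes tested.

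Genes with profiles most like those of the anti-apoptotic members were sought among 9407 protein-coding genes with a mean of at least 10 CPM, by Pearson's r of log2 CPM over the 9 libraries, whose differences in depth and cell composition enter every gene's profile. For Bcl2l1 they were Ndrg1 (r = 0.973), Prkar2b (0.963) and Nadk2 (0.961). For Mcl1 they were Arhgap4 (0.961), Cdc42se1 (0.957) and Sipa1 (0.952), and for Bcl2 Ifi30 (0.926), Cdc25b (0.922) and Atl3 (0.910). Within the family, the highest correlation was that of Mcl1 and Bcl2l11 (r = 0.769) and the lowest that of Bcl2l1 and Pmaip1 (r = -0.711). In yHSC replicate 1, 6 of the 10 members (Bcl2, Mcl1, Bak1, Bcl2l11, Bbc3 and Pmaip1) were at their lowest of the 3 yHSC libraries, and Bax and Bad at their highest. That library also had the most neutrophil markers among yHSCs, and a link to the levels of the members was not tested.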

How the data were processed

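Bulk RNA-seq was measured in 9 libraries, 3 of yHSCs and 3 of each paHSC fraction. Per the labels, cDNA was made with the SMARTer Ultra Low kit. The authors trimmed reads with fastp, and per the submitters' processing notes aligned them with HISAT2 (2.2.1) to mm39 and counted them per gene with featureCounts (2.0.6); the deposited values are raw counts. Not given in the sources used here: strand setting, annotation release, handling of multi-mapping reads. Counts were analysed in R 4.3.3 with edgeR 4.0.16 (TMM, filterByExpr, quasi-likelihood test with the legacy setting), limma 3.58.1 and DESeq2 1.42.0. Figures were made with matplotlib 3.10.9 (Python 3.11.15). Depth was 24866975 to 35375310 counts; floors of 3 counts cover counting error only. The scripts were tested on simulated data, in which edgeR missed more of the changed genes than DESeq2 and DESeq2 called more unchanged genes than edgeR. The study used DESeq2 for its comparisons, given here as an alternative.

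The members and lists were chosen with earlier results of these data known. All members were named, Selp as a check of the labels, at most 2 genes per comparison of each other list by unadjusted p in the comparisons of Selp-high paHSCs, at most 3 per marker list by level or at 0, the 3 genes most like each anti-apoptotic member, and genes overlapping a member. A gene that this rule names is not reported here. Outside this rule, Trp53 and the zero counts of single markers were named after their values were seen. Residuals of equal replicate numbers correlated at 0.178, 0.276 and 0.303 between the paHSC fractions, which was taken as pairing (each above 0.1), and at -0.417 to 0.0917 with yHSCs. Unequal numbers gave -0.245 to 0.0252 between the fractions. Residuals were taken from the group mean and cancel out within a group, so these values are not independent of those at equal numbers. Between Selp-high and yHSC libraries, which came from different mice, they reached 0.449 and 0.406. The correlations therefore do not establish that equal numbers mark the same mice.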

Additional observations from a re-analysis of the deposited data

How the results depend on the processing

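The counts of members called were recomputed with RLE and upper-quartile factors, library totals, other filters, other dispersion settings, DESeq2, voom, a replicate block and each library left out. By edgeR the count stayed at 0 in every setting but 1. Without a filter on low counts, 1 member (Bcl2l11) was called in Selp-high paHSCs over yHSCs, against 1.14% of all genes. DESeq2 called 1, 2 and 1 members in the 3 pairwise comparisons and 4 among the 3 groups, and voom called 1 (Bax) in Selp-low paHSCs over yHSCs and 1 (Bax) among the 3 groups.

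With the replicate block, edgeR called 0 members. DESeq2, a fit added after the data were seen, called 3 between the paHSC fractions (9.41% of all genes). It also called 3 in Selp-high paHSCs over yHSCs (3.03%), being Bcl2l1, Bcl2l11 and Pmaip1 in both. In Selp-low paHSCs over yHSCs it called 0 (2.96%). Young and pre-aged HSCs came from different mice, and their residuals of equal replicate numbers correlated at -0.417 to 0.0917. The block thus has no known basis in the comparisons with yHSCs. The block turned the log2 fold change of Mcl1 in Selp-low paHSCs over yHSCs to 0.016. With 1 library left out, also added for DESeq2, DESeq2 called 0 to 2, 0 to 4 and 0 to 2 members in the pairwise comparisons. These fits called 0.78% to 9.67%, 1.48% to 4.11% and 0.763% to 14% of all genes, respectively.

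Of 30 pairwise log2 fold changes, 19 kept their sign in every setting, library totals included. With 1 library left out, signs turned for Bak1 (-0.48 to 0.54), Bid (-0.080 to 0.22) and Bad (-0.33 to 0.10) in Selp-high over Selp-low paHSCs, for Bbc3 (-0.93 to 0.19) and Bid (-0.19 to 0.082) in Selp-high paHSCs over yHSCs, and for Mcl1 (-0.55 to 0.15), Bid (-0.24 to 0.051) and Bcl2l1 (-0.17 to 0.41) in Selp-low paHSCs over yHSCs. Scaled by library totals, signs turned for Bcl2 (0.054), Bax (0.029) and Bad (0.30) between the paHSC fractions and for Bcl2l1 (-0.33) and Bak1 (-0.10) in Selp-low paHSCs over yHSCs. In the last comparison voom gave -0.056 for Bcl2l1 and -0.21 for Bak1.

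Members without overlap numbered 3 to 6, 3 to 6 and 2 to 6 in the pairwise comparisons with 1 library left out. The count was 6 without Selp-low replicate 3 (36.6% of all genes) in the first comparison. In Selp-high paHSCs over yHSCs it was 6 when yHSC replicate 1 (27.7%) and 5 when Selp-high replicate 1 (23.2%) was left out, and without yHSC replicate 1 the count in Selp-low paHSCs over yHSCs was 6 (47.3%). Scaled by library totals, 1 member (Bcl2l1) stayed apart between the paHSC fractions and 0 in Selp-low paHSCs over yHSCs; these settings were added after the data were seen. The causes were not tested.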
